A study of Arabidopsis thaliana with 36 samples.

Results

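Arabidopsis seeds lacking the histone variant H3.3 (h3.3ko), taken after 24 h of germination (G24h), were compared with seeds of the Columbia wild type (Col) taken after 12 h of germination (G12h). Each group had 3 RNA-seq libraries of whole seeds. The comparison asked what differed between the genotypes beyond a delay. By the study's account, germination was complete at G24h in Col but not in h3.3ko. Col at G12h was taken to precede that point. Of the 27655 genes in the table, 17102 had at least 1 TPM (a transcript level scaled by gene length and by the total of the library) in at least 3 of these 6 libraries, and these genes are described here. The whole series held 36 libraries, 3 of each genotype at mature seed (MS), after 12, 24 or 48 h of stratification in the cold (S12h, S24h, S48h), and at G12h and G24h.

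The h3.3ko line combined CRISPR mutations of 2 of its 3 H3.3 genes with a T-DNA insertion in the third. Per the study's methods, h3.3ko seeds were picked as segregants without the fluorescent marker of a pHTR5::HTR5 rescue transgene that their mother plants carried, so the maternal seed coat could still carry that transgene. Both groups were after-ripened seeds that had been stratified before they were moved to germination conditions. Genotype and hours of germination differ together in this comparison, as does any effect of the time of day at which seeds were taken, and these cannot be told apart. In whole seeds, fewer cells of a type and less RNA per cell cannot be told apart either.

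H3.3 is the form of histone H3 that is put into chromatin outside DNA replication, whereas H3.1 is put in during replication. A maturing seed fills with storage proteins and oil bodies under the control of abscisic acid (ABA) and of B3 transcription factors such as ABI3, and dries with the help of LEA proteins. On imbibition the transcripts of this program normally decline, gibberellin (GA) synthesis starts, and genes for cell wall loosening, reserve mobilisation and later photosynthesis come on before the radicle breaks through the endosperm.

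The pair of groups was chosen by the measured values. Over the 17102 genes, the root mean square distance of the h3.3ko G24h libraries to the Col mean, on log2(TPM + 1), was 1.36 to 1.37 for G12h. It was 1.38 to 1.39 for S24h, 1.45 to 1.46 for S48h, 1.47 to 1.50 for G24h, 1.50 to 1.52 for S12h and 1.79 to 1.82 for MS. Col G12h was thus the nearest sampled time by a small margin over Col S24h, and the smallness of the distance is a description of how the pair was chosen. At the limit of 1 TPM, the third-highest of the 6 libraries was 1.001 TPM for CHX20, just inside, and 0.9994 TPM for AT1G20490, just outside.

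The 6 libraries held 18.4 to 19.2 M recovered reads, and 3 reads of a gene of 1 kb equalled 0.304 to 0.370 TPM. No library was a copy of another, since the chi-square per gene between replicates was 3.06 to 10.3. The H3.3 genes serve as a check of the labelled genotypes. AT5G10980 had 14.9, 9.93 and 9.38 TPM in h3.3ko G24h, against 480, 522 and 484 TPM in Col G12h. All h3.3ko values lay far below all Col values, and the log2 fold change was -5.35 (SE 0.17, limma with Benjamini-Hochberg adjustment, adjusted p 5.84e-23). AT4G40030 had 71.8, 59.0 and 66.6 TPM in h3.3ko G24h against 424, 423 and 445 TPM in Col G12h, and AT4G40040 had 126, 109 and 122 TPM against 435, 446 and 457 TPM. Their log2 fold changes were -2.70 and -1.90, and the h3.3ko libraries of each of the 3 genes lay below every one of the 18 Col libraries. The summed TPM of the 3 genes was 213, 178 and 198 in h3.3ko G24h and 1338, 1390 and 1386 in Col G12h (two-sided exact permutation p 0.1, the smallest that 3 against 3 libraries allow). Whether the transcripts that remain can give protein was not measured.

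Calls required a limma adjusted p under 0.05 together with a log2(TPM + 1) difference of more than 1 in size. Adding 1 shrinks the differences of weakly expressed genes. Of the 17102 genes, 5972 were called (34.9%). In h3.3ko G24h 1694 genes were higher (9.91%) and 4278 were lower (25.0%). Among the called genes, 675 rose and 1123 fell by more than 2 on the log2 scale, and 159 rose and 123 fell by more than 4. In the order of size the largest increases were those of SESA5, SESA1, CRU3, PAP85, HIS1-3, CRA1, SESA2 and AT3G22490, all but HIS1-3 genes for storage or seed maturation proteins. The largest decreases were those of GASA6, scpl44, XTH31, UMAMIT20, EXPA8, GA3OX2, EPR1 (AT2G27380; AT1G18330 has the same symbol) and ELP.

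**Figure D1:**
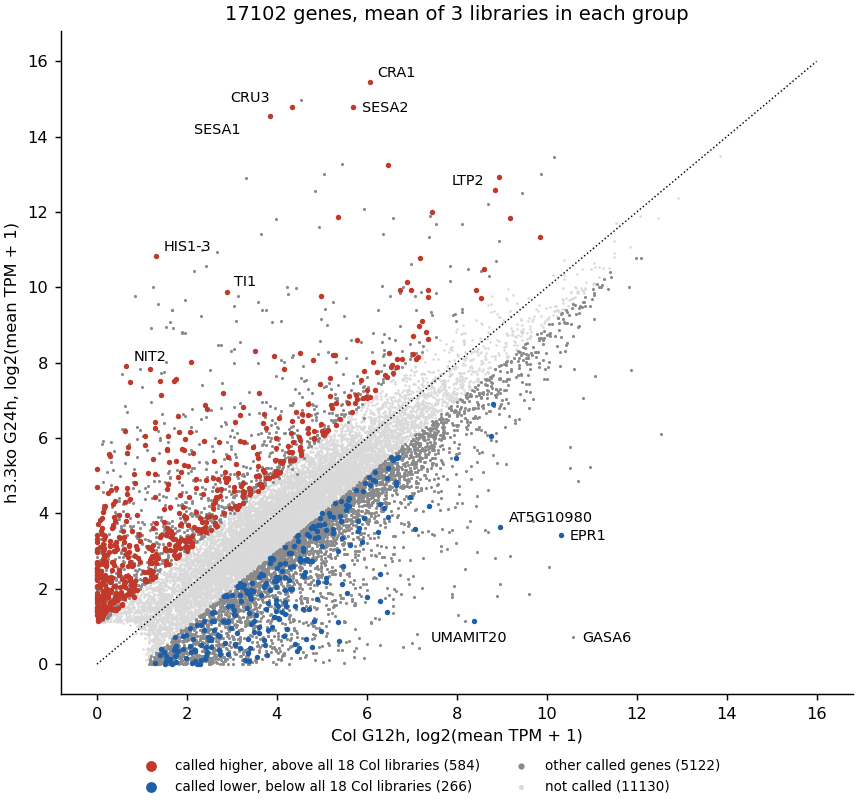
Mean level of each of the 17102 genes in h3.3ko G24h (vertical axis) against Col G12h (horizontal axis), both as log2 of the mean TPM of 3 libraries plus 1. The 584 red points are genes called higher and above all 18 Col libraries, the 266 blue points genes called lower and below all 18, dark grey points the other called genes and light grey points genes not called, and the dotted line marks equal levels. Storage protein genes stand far above the line at the top, and GASA6, UMAMIT20 and EPR1 far below it at the right.

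The split between directions depended on the scaling. The median log2 fold change of the 17102 genes was -0.39 on the TPM scale and -0.09 after median-of-ratios scaling. The share of higher calls was 28.4% on the TPM scale, 41.0% with the storage protein genes left out and the rest rescaled, 44.1% after median-of-ratios scaling and 47.3% after quantile normalization. Median-of-ratios scaling kept 1687 of the higher calls and 2797 of the lower calls, and reversed 0 calls. Small decreases are therefore to be read against a whole table that lay 0.39 lower on the log2 scale. List counts for h3.3ko G24h against Col G12h are given under both scalings where they differed. A part of the calls came from genes present in 1 group alone. There were 621 genes with at least 1 TPM in all h3.3ko G24h libraries and under 1 TPM in all Col G12h libraries, of which 491 were called higher. In the opposite direction there were 816 such genes, of which 678 were called lower.

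A level in h3.3ko G24h can differ from Col G12h and still be one that Col seeds pass through at another time. Each called gene was therefore placed on the range of the 18 Col libraries, MS to G24h. All 3 h3.3ko G24h libraries lay above all 18 Col libraries for 584 of the genes called higher (3.41% of all genes described), and below all of them for 266 of the genes called lower (1.56%). The 584 genes were 34.5% of the higher calls and comprised 523 nuclear and 61 mitochondrial genes. The 266 genes were 6.22% of the lower calls and were all nuclear. The balance of the 2 directions depended on the scaling. Above and below the Col range lay 569 and 385 genes after median-of-ratios scaling, and 589 and 510 after quantile normalization. With the storage protein genes left out the counts were 853 and 191. Of the remaining calls, 913 higher (53.9%) and 3167 lower (74.0%) had an h3.3ko G24h mean within the range of the 12 Col libraries from MS to S48h. That range is wide, and a level within it was counted there even if Col G24h had it too. The share of genes not called that fell within it was not counted, so these percentages do not set the called genes apart. Room for a level below the Col range was limited, since 2113 of the lower calls (49.4%) had under 1 TPM in at least 1 Col library. With a margin of 1 on the log2 scale beyond the outermost Col library, 159 and 51 genes remained above and below the Col range.

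**Figure D2:**
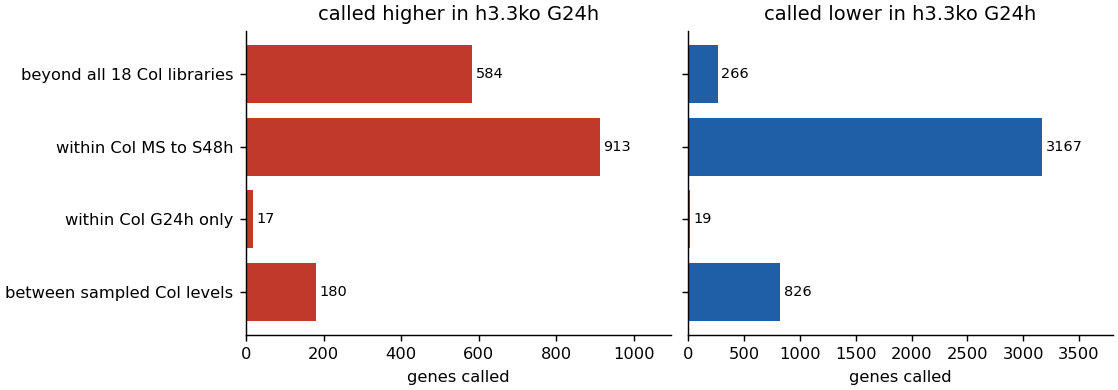
Number of called genes by where their h3.3ko G24h level fell relative to Col, for the 1694 genes called higher (left) and the 4278 called lower (right), on separate horizontal axes. Most calls in both directions fell within the range of Col levels from MS to S48h (913 and 3167), which could also be levels of Col G24h. Beyond all 18 Col libraries lay 584 higher and 266 lower calls.

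The called genes not beyond the Col range had no single Col time as their nearest. Of 1110 such genes called higher, 222 were nearest to the Col mean of MS, 306 to that of S12h, 256 to S24h, 161 to S48h, 25 to G12h and 140 to G24h. Of 4012 called lower, 587 were nearest to MS, 870 to S12h, 982 to S24h, 1179 to S48h, 112 to G12h and 282 to G24h. Few matches to G12h follow from the calls themselves, which required a difference from Col G12h. Of the 10271 genes not called and not beyond the Col range, 880 were nearest to MS, 1298 to S12h, 1320 to S24h, 1609 to S48h, 2937 to G12h and 2227 to G24h. The higher calls had their most frequent match at S12h and the lower calls at S48h.

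Storage protein genes showed the largest differences. All 9 listed genes were higher in h3.3ko G24h, with a median log2 fold change of 9.13 beside -0.39 for all genes, and 5 of the 9 lay above every Col library. Their 250 bases upstream of the annotated gene start are shown for 3 storage protein genes, the oil body gene OLEO1 and the LEA gene GEA6 (also known as EM6), because these genes carry the finding, and for CCA1 and GASA6, which are described further on and are of other functions. The sequences are from RefSeq, assembly TAIR10.1, written 5′ to 3′ on the strand of the gene. Capitals mark the RY core CATGCA, which B3 factors of seed maturation are known to bind, and the ACGTG core, which is part of ABA-responsive elements and of the G-box CACGTG, each searched on both strands, so that a CACGTG counts once on each strand.
SESA1 (chr4:13607079-13607328, plus strand): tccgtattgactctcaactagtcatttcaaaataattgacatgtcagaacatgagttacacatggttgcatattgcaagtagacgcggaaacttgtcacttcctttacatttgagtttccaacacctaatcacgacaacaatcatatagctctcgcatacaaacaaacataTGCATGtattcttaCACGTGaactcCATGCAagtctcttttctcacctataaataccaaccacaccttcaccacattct
SESA5 (chr5:22239188-22239437, minus strand): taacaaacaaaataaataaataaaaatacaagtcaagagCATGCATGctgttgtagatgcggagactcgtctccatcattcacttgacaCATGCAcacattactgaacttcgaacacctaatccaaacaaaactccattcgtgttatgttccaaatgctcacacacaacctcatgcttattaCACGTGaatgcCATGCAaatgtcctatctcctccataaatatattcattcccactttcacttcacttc
CRU3 (chr4:14087306-14087555, plus strand): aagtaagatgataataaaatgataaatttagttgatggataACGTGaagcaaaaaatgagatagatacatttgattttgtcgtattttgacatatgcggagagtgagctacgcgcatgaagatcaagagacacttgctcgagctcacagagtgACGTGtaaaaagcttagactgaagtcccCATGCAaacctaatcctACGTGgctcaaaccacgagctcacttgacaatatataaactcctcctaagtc
OLEO1 (chr4:12900180-12900429, plus strand): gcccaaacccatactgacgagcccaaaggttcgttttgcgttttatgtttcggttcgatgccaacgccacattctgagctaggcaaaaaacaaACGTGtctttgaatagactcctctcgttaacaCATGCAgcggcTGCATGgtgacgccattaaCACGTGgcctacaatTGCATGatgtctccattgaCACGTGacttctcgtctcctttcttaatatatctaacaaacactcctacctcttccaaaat
GEA6 (chr2:16780369-16780618, minus strand): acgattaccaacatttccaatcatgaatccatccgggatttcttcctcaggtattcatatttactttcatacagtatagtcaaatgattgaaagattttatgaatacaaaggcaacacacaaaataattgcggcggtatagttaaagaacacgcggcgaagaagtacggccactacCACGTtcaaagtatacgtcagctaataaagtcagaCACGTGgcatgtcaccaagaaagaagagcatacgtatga
CCA1 (chr2:19245341-19245590, plus strand): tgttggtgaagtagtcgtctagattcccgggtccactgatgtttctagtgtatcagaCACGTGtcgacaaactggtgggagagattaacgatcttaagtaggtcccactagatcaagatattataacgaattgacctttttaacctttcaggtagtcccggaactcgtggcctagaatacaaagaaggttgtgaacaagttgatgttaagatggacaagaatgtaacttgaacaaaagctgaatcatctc
GASA6 (chr1:28052780-28053029, plus strand): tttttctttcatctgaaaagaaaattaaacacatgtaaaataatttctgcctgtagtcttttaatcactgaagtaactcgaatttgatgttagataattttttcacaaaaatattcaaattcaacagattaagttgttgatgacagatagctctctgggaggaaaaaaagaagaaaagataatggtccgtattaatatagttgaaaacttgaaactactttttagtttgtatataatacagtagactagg
None of the 7 windows overlapped another annotated gene.

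The SESA1 window held 2 RY cores and a CACGTG, the SESA5 window 4 RY cores, of which the first pair overlaps, and a CACGTG, and the OLEO1 window 3 RY cores. The GASA6 window held neither motif. Over the 27443 nuclear promoters of this length, 8.43% held an RY core and 22.9% an ACGTG core. Among the windows of the 9 storage protein genes 8 held an RY core and 6 an ACGTG core, and among those of the 8 oil body genes 8 and 5 did. The 18 LEA genes differed from these, with an RY core in 4 and an ACGTG core in 16. Over the windows of the genes described, 7.26% held an RY core and 23.35% an ACGTG core. Over all genes called higher, 11.5% held an RY core and 35.5% an ACGTG core, and over all called lower 8.55% and 21.8%. Among calls beyond the Col range, 10.7% of those above it and 10.9% of those below it held an RY core. For the ACGTG core these shares were 26.8% and 22.2%. A raised share of RY cores was therefore not particular to the higher calls. A match of letters is a description and does not show that a factor was bound.

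SESA1, a gene for a 2S albumin, had 24595, 24344 and 22631 TPM in h3.3ko G24h, against 12.9, 12.1 and 15.2 TPM in Col G12h. The h3.3ko level exceeded every Col library of the series, which ran from 10.9 to 513 TPM, and the log2 fold change was 10.70 (SE 0.25, adjusted p 2.27e-26). CRU3, a gene for a 12S globulin, had 31152, 29951 and 23796 TPM in h3.3ko G24h, against 35.7, 10.6 and 11.3 TPM in Col G12h. Again the groups were far apart, with a log2 fold change of 10.66 (SE 0.23, adjusted p 4.83e-27). CRA1, another 12S globulin gene, had 49479, 46793 and 38177 TPM against 107, 41.3 and 50.2 TPM (log2 fold change 9.50), and SESA2 had 29737, 27519 and 27650 TPM against 67.3, 38.5 and 46.8 TPM (9.13). SESA5 had 34114, 32326 and 30592 TPM in h3.3ko G24h and 50.1, 6.71 and 10.2 TPM in Col G12h, with a log2 fold change of 10.94. Its level in h3.3ko G24h was one that Col also had between MS and S48h, unlike that of SESA1, SESA2, SESA3, CRU3 and CRA1. Among the 9 genes CRU2 changed least, at 175, 183 and 149 TPM against 4.25, 4.06 and 3.86 TPM (log2 fold change 5.07). PAP85, a cupin gene outside the list, followed the same direction with 8321, 8079 and 6721 TPM in h3.3ko G24h and 17.6, 3.96 and 5.39 TPM in Col G12h (9.84). The SESA genes 1 to 4 lie side by side and are similar in sequence. How the authors counted reads that fit more than 1 of them is not stated, so single copies are uncertain.

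Summed over the 9 storage protein genes, the libraries of h3.3ko G24h held 184336, 175194 and 156459 TPM, against 440, 251 and 280 TPM in Col G12h. This was 17.2% ± 1.42 of all TPM in h3.3ko G24h and 0.0324% ± 0.0102 in Col G12h (SD, n = 3 each, exact permutation p 0.1). Over time the mean sum in h3.3ko was 341441 TPM in MS, 262483 TPM in S12h, 192624 TPM in S24h, 142957 TPM in S48h, 114469 TPM in G12h and 171996 TPM in G24h. In Col it was 101508, 60355, 24989, 5730, 324 and 323 TPM at the same times. The h3.3ko G24h sum was therefore above that of Col at every sampled time, mature seeds included.

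Oil body genes, which code for oleosins and other proteins of the oil body surface, were all higher as well (8 of 8, median log2 fold change 6.72), and 0 of the 8 lay above every Col library. OLEO1 had 6504, 5594 and 6148 TPM in h3.3ko G24h, against 38.4, 21.5 and 23.5 TPM in Col G12h (log2 fold change 7.77, SE 0.14, adjusted p 3.39e-29). The groups did not overlap. The sum over the 8 genes was 13901, 12177 and 13323 TPM in h3.3ko G24h and 168, 126 and 154 TPM in Col G12h. Of 3 measured tonoplast aquaporin genes 2 were higher and GAMMA-TIP was lower, at 2.68, 0 and 0.0763 TPM in h3.3ko G24h and 4.29, 4.55 and 5.29 TPM in Col G12h. The h3.3ko level of GAMMA-TIP rested mostly on replicate 1, and with a pseudocount of 5 the gene was not called lower. TIP3;1, known for its place in the membrane of protein storage vacuoles, had 1572, 1517 and 1497 TPM in h3.3ko G24h and 9.95, 1.45 and 1.77 TPM in Col G12h (log2 fold change 8.51).

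**Figure D3:**
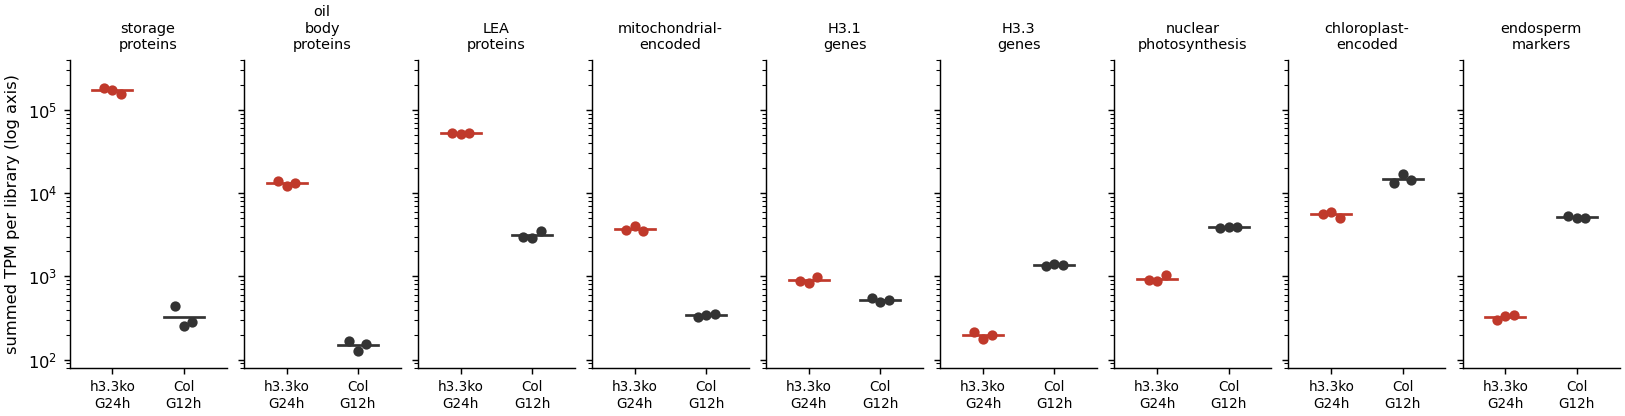
Summed TPM per library on a log axis for 9 groups of genes, with h3.3ko G24h (red) left of Col G12h (dark) in each panel, a point for each of the 3 libraries and a line at their mean. Storage protein, oil body, LEA, mitochondrial-encoded and H3.1 sums were higher in h3.3ko G24h in all libraries, and H3.3, nuclear photosynthesis, chloroplast-encoded and endosperm marker sums were lower in all libraries.

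Genes for LEA proteins, which protect the drying embryo, were higher in all 18 cases, with a median log2 fold change of 4.73. Their sum was 52952, 51487 and 52341 TPM in h3.3ko G24h and 2970, 2918 and 3512 TPM in Col G12h. AT3G22490, annotated as a seed maturation protein, showed the largest change of the list, with 898, 855 and 890 TPM in h3.3ko G24h against 1.25, 0.510 and 0.636 TPM in Col G12h (log2 fold change 8.96). GEA6 had 3692, 3294 and 3782 TPM against 16.3, 10.6 and 17.3 TPM (7.86), and RAB18 (AT5G66400), a dehydrin gene widely used as a marker of ABA response, had 10375, 9881 and 9614 TPM against 54.6, 33.7 and 40.0 TPM (7.86). None of these values overlapped between the groups. EM1 and ECP63 were the 2 genes of the list above every Col library, EM1 with 3914, 3843 and 3429 TPM against 40.2, 36.6 and 44.1 TPM. PER1, a peroxiredoxin gene of dry seeds, is from the list of antioxidant and NADPH oxidase genes, of which 2 of 11 were higher and 5 lower (2 and 2 after median-of-ratios scaling). It had 3265, 2982 and 3166 TPM in h3.3ko G24h and 34.0, 26.0 and 28.8 TPM in Col G12h (log2 fold change 6.69).

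Regulators of maturation and dormancy were higher for 7 and lower for 1 of the 10 measured of 14 listed. EEL, a bZIP factor of late maturation, had 119, 119 and 115 TPM in h3.3ko G24h against 4.33, 4.28 and 4.35 TPM in Col G12h (log2 fold change 4.48, SE 0.07, adjusted p 2.67e-30). That level lay above every Col library, the highest of which had 63.7 TPM. ABI5, the bZIP factor that holds back germination under ABA, had 132, 139 and 127 TPM against 40.5, 36.5 and 41.0 TPM (1.73), and DOG1, a major dormancy gene, had 5.17, 3.95 and 3.78 TPM against 0, 0.0567 and 0.0590 TPM. E12A11, the gene known as MFT, had 16.2, 15 and 15.6 TPM in h3.3ko G24h and 0.570, 0.438 and 0.455 TPM in Col G12h (3.48). ABI4, an AP2 factor of ABA signalling, was the 1 member that fell, with 56.3, 57.1 and 55.1 TPM in h3.3ko G24h and 284, 245 and 258 TPM in Col G12h (-2.20). ABI3, the B3 factor, was not called, with 177, 178 and 146 TPM against 171, 174 and 174 TPM and a log2 fold change of -0.06 (SE 0.08). The large differences in storage transcripts thus stood beside ABI3 levels whose libraries overlapped. LEC1 and LEC2 did not reach 1 TPM in any of the 6 libraries.

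Among 8 VAL and polycomb genes, which are known to silence the maturation program after germination, 0 were higher and CLF and FIE were lower, with CLF at 5.52, 6.36 and 5.35 TPM in h3.3ko G24h and 19.9, 18.8 and 20.8 TPM in Col G12h (log2 fold change -1.63). These 2 of 8 are the same share as among all genes (25.0% lower), and after median-of-ratios scaling CLF was the 1 called. HSI2 (VAL1) was not called, at 16.9, 15.3 and 14.8 TPM against 15.6, 14.5 and 14.9 TPM.

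In ABA synthesis 1 of 5 measured genes was higher on the TPM scale and 2 after median-of-ratios scaling. ABA1, the zeaxanthin epoxidase gene, was higher under both, with 66.7, 71.5 and 63.2 TPM in h3.3ko G24h against 9.68, 10.2 and 9.15 TPM in Col G12h (log2 fold change 2.67). In ABA catabolism 2 of 3 measured genes were lower under both scalings, and the third was higher after median-of-ratios scaling. CYP707A2, the main ABA hydroxylase gene of imbibed seeds, had 0.749, 0.591 and 0.558 TPM in h3.3ko G24h and 4.80, 4.89 and 4.53 TPM in Col G12h, a log2 fold change of -1.82. Col G12h itself was the low point of the Col course of this gene, which had a mean of 554 TPM at Col S12h, and all 3 h3.3ko libraries lay below it. Of the 9 clade A PP2C genes, which code for phosphatases that restrain ABA signalling and are themselves induced by ABA, 6 were higher and ABI1 was lower. AHG1, the PP2C most tied to seeds, had 82.3, 95.2 and 75.1 TPM against 11.1, 16.7 and 15.8 TPM (2.47).

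Genes for linker histone H1 and the seed-specific H2B variant were higher in 4 of 4 cases. HIS1-3, a stress- and ABA-inducible H1 variant, had 1866, 1794 and 1792 TPM in h3.3ko G24h, against 1.86, 1.39 and 1.22 TPM in Col G12h. Its log2 fold change was 9.52 (SE 0.13, adjusted p 5.13e-32), and no Col library of the series exceeded 151 TPM. The constitutive H1 genes changed less, with AT1G06760 (H1.1) at 676, 632 and 641 TPM against 175, 169 and 171 TPM (1.91) and AT2G30620 (H1.2) at 406, 390 and 423 TPM against 97.7, 85.5 and 85.3 TPM (2.17). AT1G08170, known as the seed histone H2B.S, had 74.4, 75.0 and 67.3 TPM in h3.3ko G24h and 1.03, 2.02 and 1.58 TPM in Col G12h (4.86).

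Of the 5 H3.1 genes 2 were higher and 0 lower on the TPM scale, and 3 were higher after median-of-ratios scaling. AT5G10400 had 295, 281 and 349 TPM in h3.3ko G24h against 101, 81.0 and 84.5 TPM in Col G12h (log2 fold change 1.78, SE 0.12, adjusted p 1e-14), and AT3G27360 had 43.5, 29.0 and 40.1 TPM against 10.5, 8.82 and 13.3 TPM (1.70). Both of these genes lay above every Col library, G24h included, but the sum over the 5 genes did not, since it averaged 902 ± 75.9 TPM in h3.3ko G24h and 1727 ± 59.1 TPM in Col G24h (SD, n = 3 each). AT5G65360 and AT5G10390 were not called, with log2 fold changes of 0.09 and 0.12. Against Col G12h the sum was higher, at 886, 835 and 984 TPM in h3.3ko G24h and 553, 488 and 525 TPM in Col G12h (exact permutation p 0.1). Copies of these genes are nearly alike, and how reads that fit more than 1 copy were counted is not stated. The level of each copy is therefore uncertain, and any reads left out would lower the sum as well. Of 7 genes for H3 deposition 0 were called by limma, and 0 were called with voom on recovered reads. At an unadjusted p under 0.05, 0 were higher and 5 lower, beside 25.4% and 58.6% of all genes described, so 5 of 7 was near the share of the whole table. ASF1B was the lowest of the list at a log2 fold change of -0.87, and HIRA, which serves H3.3, was at -0.14.

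Some genes called higher were low or near 0 in Col at every sampled time. NIT2, a nitrilase gene, had 197, 286 and 232 TPM in h3.3ko G24h and 0.519, 0.710 and 0.474 TPM in Col G12h. All 18 Col libraries were at or under 20.7 TPM, and the log2 fold change was 7.24 (SE 0.16, adjusted p 3.59e-27). PDF1.4, a gene for a defensin-like protein, had 174, 169 and 190 TPM in h3.3ko G24h and 1.49, 0.162 and 0.336 TPM in Col G12h, with at most 4.33 TPM in any Col library. In h3.3ko the mean of PDF1.4 was 8.09 TPM at MS, 1.93 TPM at S48h, 29.9 TPM at G12h and 178 TPM at G24h, so that most of its level appeared during germination.

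TI1, a gene for a small trypsin inhibitor, had 937, 892 and 1015 TPM in h3.3ko G24h against 7.81, 4.74 and 6.56 TPM in Col G12h (log2 fold change 7.03, SE 0.12, adjusted p 4.90e-30). TI2, a related gene, had 40.4, 52.3 and 47.7 TPM against 0.244, 0.239 and 0.124 TPM. Every h3.3ko G24h library of both genes lay above all Col libraries, the highest of which had 76.1 TPM of TI1. LTP2, a lipid transfer protein gene of the epidermis, had 6219, 5685 and 6399 TPM in h3.3ko G24h and 463, 427 and 486 TPM in Col G12h (3.73). PAB5, a poly(A)-binding protein gene known from reproductive tissue, had 14.9, 16.2 and 14.8 TPM in h3.3ko G24h and 0.0974, 0.0635 and 0.132 TPM in Col G12h, and no Col library exceeded 0.699 TPM.

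ELI3-2, a cinnamyl alcohol dehydrogenase gene, had 11.1, 15 and 10.4 TPM in h3.3ko G24h and 0, 0 and 0.0550 TPM in Col G12h. AGL96, a MADS-box gene, had 5.64, 5.21 and 5.18 TPM against 0, 0.156 and 0 TPM, and CYP72A8, a cytochrome P450 gene, had 13.4, 15.5 and 15.1 TPM against 0.812, 0.844 and 0.877 TPM. No fold is given for a gene with 3 reads or fewer in at least 2 of the 3 libraries of the lower group, as for PDF1.4, TI2, PAB5, ELI3-2 and AGL96 here and DOG1 above. AT1G22980, annotated as a Grap2/cyclin-D-interacting protein, had 45.3, 49.1 and 47.6 TPM in h3.3ko G24h and 2.86, 3.63 and 3.59 TPM in Col G12h (3.47), above a Col maximum of 4.74 TPM. NIT2, PDF1.4, TI2, PAB5, ELI3-2, AGL96 and CYP72A8 were picked as examples after their values were seen.

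GA synthesis genes were lower in 5 and higher in 0 of 9 measured cases, with a median log2 fold change of -1.69. GA3OX2, whose product makes active GA, had 1.89, 0.740 and 1.02 TPM in h3.3ko G24h against 279, 288 and 304 TPM in Col G12h (log2 fold change -7.07, SE 0.12, adjusted p 1.21e-29). GA3OX1 had 0.697, 0.548 and 0.363 TPM against 44.1, 51.5 and 47.1 TPM (-4.99). The GA3OX2 level in h3.3ko G24h was near that of Col before this gene comes on, since its Col mean was 0 at MS and S12h, 3.92 TPM at S24h and 32.3 TPM at S48h. KAO2, which acts earlier in the pathway, lay below every Col library, at 10.4, 9.07 and 8.07 TPM against 43.8, 41.9 and 42.8 TPM (-2.11). Of 9 genes for GA perception and DELLA repressors, RGA1, RGL1 and RGL3 were lower under both scalings, 0 were higher on the TPM scale and 1 after median-of-ratios scaling. RGL2, the DELLA gene tied most to germination, was not called at 289, 290 and 296 TPM against 269, 252 and 264 TPM. The median of that list changed sign with the scaling, at -0.21 on the TPM scale and 0.04 after median-of-ratios scaling.

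GASA6, a GA-induced peptide gene active in embryo elongation, showed the largest decrease of all. It had 0.748, 0.574 and 0.633 TPM in h3.3ko G24h, against 1575, 1536 and 1507 TPM in Col G12h. The log2 fold change was -9.87 (SE 0.13, adjusted p 5.13e-32). Its Col mean was 1433 TPM at S48h, and no h3.3ko group had a mean above 1.43 TPM. The gene scpl44, for a serine carboxypeptidase-like protein, had 2.48, 2.12 and 3.3 TPM in h3.3ko G24h and 778, 772 and 786 TPM in Col G12h (-7.76).

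Cell wall genes were lower in the main. Expansins, which loosen walls during growth, fell in 7 and rose in 0 of 10 measured cases, with a median log2 fold change of -4.27. EXPA8 had 2.30, 2.18 and 3.07 TPM in h3.3ko G24h against 502, 456 and 471 TPM in Col G12h (-7.09), and EXPA2, expressed in the endosperm during germination, had 204, 224 and 244 TPM against 3982, 3703 and 3549 TPM (-4.06). Every h3.3ko value of both genes lay below every Col G12h value. Of 9 measured XTH genes, for enzymes that cut and rejoin xyloglucan, 6 were lower and TCH4 and XTH24 were higher. XTH31 had 4.66, 4.49 and 5.89 TPM against 1129, 983 and 1060 TPM (-7.46), while TCH4 had 62.8, 68.1 and 76.2 TPM against 12.6, 16.3 and 21.5 TPM. Among the endo-beta-mannanase genes, MAN6 and MAN2 were lower, and MAN7, the mannanase gene of the germinating endosperm, was not called, at 86.1, 99.3 and 90.6 TPM against 108, 107 and 111 TPM. ELP, an extensin-like protein gene, had 14.1, 0 and 0 TPM in h3.3ko G24h and 298, 255 and 311 TPM in Col G12h. Its h3.3ko level rested on replicate 1 alone, and in 8 lower calls replicate 1 was over 4 times both other h3.3ko G24h libraries, against 0 such calls for replicates 2 and 3.

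Among the genes below every Col library, EPR1 (AT2G27380), an extensin-like gene of the endosperm that covers the radicle tip, had 12.7, 10.2 and 6.68 TPM in h3.3ko G24h and 1175, 1230 and 1419 TPM in Col G12h. The log2 fold change was -6.91 (SE 0.22, adjusted p 1.17e-22), and the lowest of the 18 Col libraries had 229 TPM. EPR1 declined with time in both genotypes, with means of 1666 TPM at MS, 228 TPM at S48h and 9.85 TPM at G24h in h3.3ko, and of 9463, 4405 and 378 TPM at the same times in Col. The 4 endosperm markers were EPR1, EXPA2, MAN7 and NCED6. EPR1 and EXPA2 were lower, MAN7 was not called, and NCED6 was under the limit for description, with 0 TPM in the h3.3ko G24h libraries. Their sum was 303, 333 and 341 TPM in h3.3ko G24h and 5265, 5040 and 5080 TPM in Col G12h (exact permutation p 0.1). Whether the amount of endosperm RNA in the samples differed was not tested. None of the 5 seed coat markers, BAN, TT2, TT8, TT10 and TT12, reached the limit, and their summed TPM was 0 in all of the 6 libraries but Col G12h replicate 2, which had 0.0841 TPM.

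UMAMIT20, a transporter gene, had 1.97, 0.779 and 0.909 TPM in h3.3ko G24h and 347, 322 and 326 TPM in Col G12h (log2 fold change -7.27, SE 0.14, adjusted p 1.93e-28). No Col library had under 19.2 TPM, and no h3.3ko group had a mean above 1.22 TPM. AT1G72570, annotated as a DNA-binding protein, had 1.90, 1.67 and 1.31 TPM in h3.3ko G24h against 85.6, 87.2 and 85.7 TPM in Col G12h (-5.06). AT1G69760, annotated as an SRP40-like protein, had 4.30, 4.06 and 4.28 TPM against 84.7, 70.9 and 77.2 TPM (-3.91), and AT1G73885, annotated as an AT-rich interactive domain protein, had 41.2, 43.6 and 45.5 TPM against 244, 252 and 262 TPM (-2.51).

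Examples chosen after their values were seen were AT2G16890, a UDP-glycosyltransferase gene, at 0.512, 0.480 and 0.619 TPM in h3.3ko G24h and 40.8, 43.9 and 36.3 TPM in Col G12h (-4.75), and PHOT1, the blue light receptor gene, at 3.08, 3.11 and 2.56 TPM against 17.4, 17.6 and 16.6 TPM (-2.22). AHL20, an AT-hook protein gene, had 1.39, 1.0 and 0.837 TPM against 9.89, 9.14 and 9.98 TPM (-2.37), and AT5G09800, for an ARM repeat protein, had 0.956, 0.653 and 1.05 TPM against 15.6, 12.9 and 10.3 TPM (-2.87). Col had each of these 4 genes at 6.23 TPM or more in every library.

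**Figure D4:**
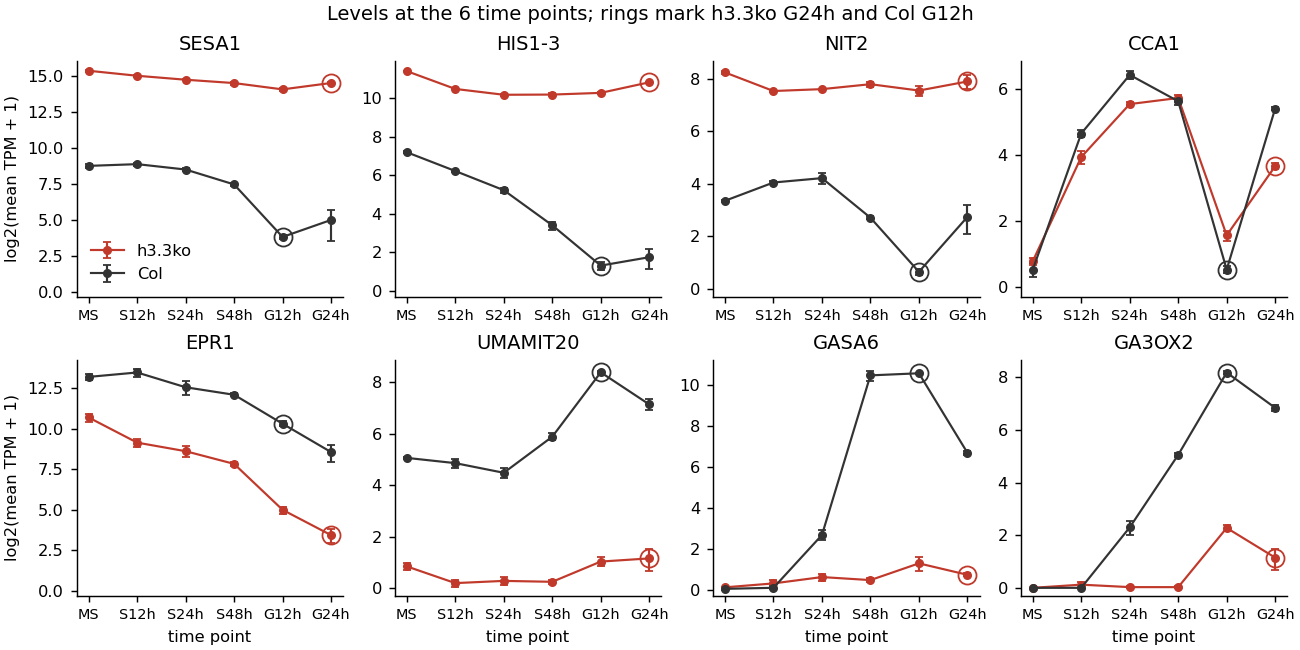
Levels of 8 genes as log2 of the mean TPM plus 1 in h3.3ko (red) and Col (dark) at the 6 time points, with rings on h3.3ko G24h and Col G12h and bars from the mean minus 1 SD to the mean plus 1 SD of 3 libraries. SESA1, HIS1-3 and NIT2 stayed above the Col course, UMAMIT20 stayed below it, EPR1 declined in both genotypes, GASA6 and GA3OX2 came on in Col alone, and CCA1 moved up and down in both.

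The epidermis list held 6 lower and 1 higher of 9 genes, the higher one being LTP2, and 6 lower and 2 higher after median-of-ratios scaling. ATML1, which specifies epidermal identity and takes part in the GA response of the embryo epidermis, had 10.4, 12.8 and 10.3 TPM in h3.3ko G24h against 55.4, 56.0 and 55.2 TPM in Col G12h (log2 fold change -2.22) and lay below every Col library. PDF2 (AT4G04890), its close relative, had 33, 35.8 and 29.4 TPM against 98.4, 96.7 and 89.7 TPM (-1.51). CER1, a wax gene, was lower too, at 1.64, 0.0257 and 0.122 TPM against 15.5, 15.1 and 15.5 TPM, where replicate 1 again stood above the other h3.3ko libraries.

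Reserve mobilisation genes differed far less than storage genes. Of 18 genes for lipases, beta-oxidation and the glyoxylate cycle, 9 were lower and 0 higher on the TPM scale, with a median log2 fold change of -0.86, and 3 were lower after median-of-ratios scaling. The count of this list thus depended on the scaling more than that of the storage genes, which was 9 of 9 under both. ICL, the isocitrate lyase gene of the glyoxylate cycle, was not called, at 11143, 12602 and 10829 TPM in h3.3ko G24h and 14285, 15057 and 15109 TPM in Col G12h (-0.37, SE 0.09). MLS, the malate synthase gene, had 3820, 4062 and 3589 TPM against 4194, 4407 and 4333 TPM (-0.17). The largest decrease was of ACX3, an acyl-CoA oxidase gene, at 108, 124 and 101 TPM against 336, 365 and 353 TPM (-1.66). Transcripts for storing reserves and for using them were thus both abundant in h3.3ko G24h.

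Nuclear genes for photosynthesis were lower in 22 and higher in 2 of 32 measured cases, and in 20 and 2 after median-of-ratios scaling. Their sum was 898, 882 and 1037 TPM in h3.3ko G24h and 3832, 3932 and 3955 TPM in Col G12h (exact permutation p 0.1). RBCS3B, for a Rubisco small subunit, had 11.6, 9.07 and 10.2 TPM in h3.3ko G24h against 389, 431 and 421 TPM in Col G12h (log2 fold change -5.20). CAB3, a light-harvesting gene, went the other way, with 23.2, 24.4 and 21.3 TPM against 1.19, 1.36 and 0.907 TPM (3.48).

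Transcript levels of the organelle genomes moved in opposite directions. The activity of their genes was not tested, and voom on recovered nuclear reads covered 0 of them. Of the 122 mitochondrial-encoded genes 73 were measured, and 70 were higher and 0 lower under both scalings, with a median log2 fold change of 2.60. A gene could pass the limit of 1 TPM through the h3.3ko G24h libraries alone, which favours higher calls. How many of the 73 did so was not counted. The sum that follows covers all 122 genes, whatever the limit. The mitochondrial-encoded sum was 3650, 4045 and 3545 TPM in h3.3ko G24h and 324, 346 and 357 TPM in Col G12h, a ratio of 10.9 (exact permutation p 0.1). ATMG01370 had 877, 882 and 839 TPM in h3.3ko G24h against 22.4, 26.8 and 42.9 TPM in Col G12h (4.83), ATMG00630 had 137, 171 and 117 TPM against 1.09, 2.85 and 1.11 TPM (5.78), and ATMG00030 had 919, 1003 and 1005 TPM against 135, 120 and 122 TPM (2.94). These 3 were chosen after their values were seen. The mitochondrial sum in h3.3ko was 4046 TPM at MS and 3026 TPM at S48h, and in Col it was 1172 TPM at most, at S12h. Of 74 measured chloroplast-encoded genes 33 were lower and 0 higher on the TPM scale, and 24 and 1 after median-of-ratios scaling. Their sum was 5640, 6009 and 4981 TPM in h3.3ko G24h and 13302, 16738 and 14489 TPM in Col G12h (exact permutation p 0.1).

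S phase and mitosis genes were lower in 8 and higher in 0 of 14 cases on the TPM scale, and in 5 after median-of-ratios scaling. PCNA1, the sliding clamp of DNA replication, had 13.9, 13.9 and 13.6 TPM in h3.3ko G24h against 69.5, 70.7 and 71.0 TPM in Col G12h (log2 fold change -2.27). D-type cyclins were lower in 3 of 9 cases with a median of -0.38, near the 25.0% called lower and the median of -0.39 of all genes. Beta-tubulins were lower in 6 of 9 cases, with TUB5 at 3.47, 3.55 and 4.16 TPM against 53.3, 51.8 and 50.5 TPM (-3.49). Plasma membrane aquaporins were lower in 5 of 11 measured cases under both scalings, and higher in 0 on the TPM scale and in 1 after median-of-ratios scaling. The largest decrease was that of PIP3 at 43.8, 34.2 and 41.5 TPM against 463, 480 and 487 TPM (-3.56). ER chaperones, which fold secreted proteins, were lower in 5 and higher in 1 of 7 cases, with BIP2 at 162, 201 and 169 TPM against 706, 663 and 718 TPM (-1.97) and the stress-induced BIP3 at 1.79, 2.56 and 1.92 TPM against 0.0921, 0.135 and 0.421 TPM. RBOHD, an NADPH oxidase gene, lay below every Col library, at 9.16, 8.11 and 6.49 TPM against 48.1, 51.3 and 46.7 TPM (-2.49).

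Clock genes differed as well. Of 21 genes 9 were higher and ELF4 was lower. CCA1, a morning-phased MYB factor, had 11.1, 12.6 and 11.3 TPM in h3.3ko G24h and 0.365, 0.392 and 0.556 TPM in Col G12h (log2 fold change 3.14, SE 0.10, adjusted p 1.40e-22). LHY, its partner, had 37.0, 37.3 and 33.1 TPM against 3.96, 3.37 and 3.09 TPM (3.04), and PRR9 had 14.8, 15 and 10.7 TPM against 0.566, 0.415 and 0.239 TPM (3.36). ELF4, an evening-phased gene, had 144, 146 and 162 TPM in h3.3ko G24h and 734, 746 and 731 TPM in Col G12h (-2.29). The 2 groups were taken 12 h apart in germination, and these genes also differed between G12h and G24h within each genotype. CCA1 had means of 1.96 and 11.7 TPM at G12h and G24h in h3.3ko, and of 0.438 and 41.6 TPM in Col. ELF4 had 277 and 151 TPM at these times in h3.3ko, and 737 and 13.6 TPM in Col. Genotype and hours cannot be told apart for the clock genes. Among the promoters of all 21 clock genes, 15 held an ACGTG core, 1 an RY core and 6 the evening element AAATATCT, which 4.79% of all promoters held on either strand. Among the 9 called higher the counts were 7, 0 and 0. Of 11 measured light signalling genes PIF4, PIL6 (PIF5) and PIL2 (PIF6) were higher and SPT was lower, and after median-of-ratios scaling 4 were higher and 1 lower. An example is PIF4 at 14.7, 15.2 and 13.5 TPM against 0.406, 0.635 and 0.742 TPM (3.28), above every Col library.

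Heat shock genes were the least even list. By limma 9 of 12 were higher and 1 lower, with a median log2 fold change of 1.80, but the libraries of only 2 of the 9 did not overlap (25.6% of all genes described were higher without overlap). Col G12h replicate 2 was high. HSP101, for example, had 69.3, 98.9 and 105 TPM in h3.3ko G24h and 9.26, 154 and 17.4 TPM in Col G12h. The summed level was 1727, 2382 and 3094 TPM in h3.3ko G24h and 315, 2480 and 654 TPM in Col G12h (exact permutation p 0.3). Without Col G12h replicate 2 the counts were 11 higher and 1 lower with a median of 2.88, and without Col G12h replicate 1 they were 4 and 1 with a median of 1.03. GolS1, a raffinose pathway gene known to respond to heat, had the same high library, at 81.1, 80.4 and 93.4 TPM in h3.3ko G24h and 19.8, 96.8 and 24.7 TPM in Col G12h, while GolS2 was even, at 18.6, 18.3 and 18.4 TPM against 0.982, 0.565 and 0.646 TPM (3.50).

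The same measure was taken in libraries that the pair of groups did not use. In h3.3ko S48h against Col S24h, 2948 of the 17102 genes were higher (17.2%) and 1527 lower (8.93%), and in h3.3ko MS against Col MS 1535 were higher (8.98%) and 1886 lower (11.0%). By the same limit of 1 TPM, 16279 genes would be described in the first of these comparisons and 13928 in mature seeds. The 17102 genes thus include some that were low there, so these shares are not like for like with those at G24h against G12h. Of the 1694 genes higher in h3.3ko G24h, 873 were also higher in h3.3ko S48h, which was 51.5% of the first list and 29.6% of the second, and 80 were lower there. Of the 4278 genes lower in h3.3ko G24h, 844 were also lower in h3.3ko S48h (19.7% and 55.3%), and 497 were higher there. In mature seeds 357 of the higher calls were already higher (21.1% and 23.3%) and 285 were lower, and 568 of the lower calls were already lower (13.3% and 30.1%) and 301 were higher. In all 3 comparisons 286 genes were higher and 369 were lower.

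By list, the storage protein genes were higher in 8 of 9 cases at S48h against S24h and in 7 of 9 in mature seeds, with 1 lower each time. Oil body genes were higher in 3 and 0 of 8 cases in these comparisons, and lower in 0 and 1. LEA genes were higher in 12 and 0 of 18 cases, and lower in 1 and 6. All counts in this paragraph are on the TPM scale alone. In mature seeds the storage protein genes held 34.1% of TPM in h3.3ko and 10.2% in Col, which lowers the TPM of other genes in h3.3ko. Over all genes, 2416 were called higher in mature seeds after median-of-ratios scaling, against 1535 on the TPM scale. The mitochondrial-encoded genes were higher in 43 and 16 of 73 cases, and lower in 0 and 4. Heat shock genes, by contrast, were lower in 6 and 7 of 12 cases and higher in 1 and 0, and ER chaperones were higher in 7 and 2 of 7. Beta-tubulins were higher in 6 and 2 of 9. Expansins were higher in 4 and 2 of 10 cases and lower in 2 and 0, XTH genes higher in 5 and 1 of 9 and lower in 0, and nuclear photosynthesis genes higher in 7 and 12 of 32 and lower in 2 each time. S phase and mitosis genes were higher in 7 and lower in 2 of 14 cases at S48h against S24h, and 36 of 74 chloroplast-encoded genes were higher and 1 lower in mature seeds. With the mitochondrial and chloroplast sets counted as lists, 33 had more calls in 1 direction than in the other at G24h against G12h. For 11 of them the opposite direction had more calls in both earlier comparisons. All genes also leaned lower at G24h against G12h (25.0% lower, 9.91% higher) and higher at S48h against S24h (17.2% higher, 8.93% lower). In mature seeds 8.98% were higher and 11.0% lower. Some of the 11 lists rested on few calls, as endo-beta-mannanases did with 1 higher in each earlier comparison.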

How the data were processed

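RNA-seq libraries of whole seeds were made from 12 groups of 3 samples, which the study describes as independent biological replicates. Per the labels and the study's methods, the authors trimmed the paired reads with fastp 0.20.1, aligned them to TAIR10 with HISAT2 2.1.10, counted them per gene with HTSeq 0.11.2 and computed TPM in R. The deposited TPM table held 27655 genes (27445 nuclear, 88 chloroplast and 122 mitochondrial), and 0 of its columns belonged to no sample. The authors' calls, made with DESeq2 1.26.0, were not used. The kit of these libraries is not stated to mark strand, so reads of a gene and of an antisense partner cannot be told apart. TPM were divided by the span of the gene, introns included, which lowers the level of genes with long introns. Ratios of TPM between groups are unchanged by this. Differences on log2(TPM + 1) shrink for such genes, and some can fall under the limit of 1 TPM. Because TPM are shares, the storage transcripts that filled h3.3ko libraries lowered the TPM of all other genes there. Symbols, positions and promoter sequences come from RefSeq, assembly TAIR10.1.

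Values of log2(TPM + 1) were fitted by a single limma model (version 3.58.1, R 4.3.3) with 12 group means and a variance trend, over the 19052 genes with at least 1 TPM in at least 3 of 36 libraries, with 24 residual degrees of freedom and Benjamini-Hochberg adjustment over all of them. Calls were counted over the 17102 genes described. Sums per library were compared by exact permutation tests in scipy 1.17.1 (Python 3.11.15, pandas 2.3.3), which cannot go below 0.1 with 3 libraries against 3. Whole reads were recovered from the TPM for 27440 of 27445 nuclear genes, with at least 99.956% of low values whole within 0.02 reads in every library, and were used for depth, for the floor of 3 reads and for voom. Floors cover counting error alone. Scripts were tested on simulated data. Other scalings, pseudocounts, filters, voom, a replicate block and leaving out each library were tried.

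The groups, the genes described and the gene lists were chosen with earlier results of these data known, so list counts are descriptions and were not tested. The permutation p-values of summed TPM are for sets chosen in the same way and are descriptions too. Tests of the storage protein, H3.1, H3.3, chloroplast-encoded and mitochondrial-encoded sums were planned. Those of the nuclear photosynthesis, endosperm marker and heat shock sums were not among the planned ones. Genes were named by rule: the H3.3 genes, the 8 called genes that rose most and the 8 that fell most, where the libraries did not overlap and the higher group averaged 5 TPM or more, the 6 genes in each direction farthest beyond the Col range with averages of 20 TPM or more in the higher and 1 TPM or more in the lower group, and genes of the 34 lists. Another 14 genes were named after their values were seen. Figures were drawn with matplotlib 3.10.9.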

Additional observations from a re-analysis of the deposited data

How the results depend on the processing

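On the TPM scale with a pseudocount of 1, 1694 genes were called higher and 4278 lower for h3.3ko G24h against Col G12h. A pseudocount of 5 gave 990 and 2686, and a mean of at least 5 TPM left 1129 higher. With voom 2659 genes were higher. The lower count was 2797 after median-of-ratios scaling and 2785 after quantile normalization. Leaving out each library in turn gave 1666 to 1722 higher and 4220 to 4345 lower. The replicate numbers were not taken to pair the libraries, since the same-number deviations correlated at 0.0998, 0.0517 and -0.0099, and a replicate block gave 1694 and 4278. For mature seeds the higher count was 2416 after median-of-ratios scaling, and with a pseudocount of 0.1 the counts were 2922 higher and 2908 lower. Beyond the Col range, a margin of 1 left 159 above and 51 below, and quantile normalization gave 510 below. Leaving out the storage protein genes gave 853 above and 191 below. With storage protein genes left out, the difference in summed TPM was 566 for H3.1, -1135 for H3.3 and 4185 for mitochondrial-encoded genes. Leaving out each library gave 338 to 413, -1192 to -1166 and 3255 to 3505 for these sums, 165503 to 179441 for storage proteins and -10070 to -8352 for chloroplast-encoded genes. Among the values of genes under all alternatives run, 5072 stayed on their side of the threshold, 92 lost and 72 gained a call, and 0 reversed. Of the list counts under these alternatives, 1090 were within 1.5 times the count on the TPM scale and 56 were not. The depth behind each value limits genes under 0.370 TPM at 1 kb most.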
